A study of Homo sapiens with 6 samples.

Results

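The transcripts of SR proteins and hnRNPs were compared between libraries labelled LINC00115 KD and libraries labelled WT. The study describes the cells as PTX-resistant MDA-MB-231 breast cancer stem cells (BCSC). Members were chosen by symbol from the count table, as Srsf followed by a digit, Hnrnp or Hnrp, Tra2a, Tra2b, Ptbp1, Ptbp2, Ptbp3 and Pcbp1. This gave 37 of the 22989 genes listed, 12 of the SR branch (Srsf and Tra2 genes) and 25 of the hnRNP branch (all others). MDA-MB-231 is an established human line of triple-negative breast cancer, PTX is paclitaxel, and BCSC are, in the study, the cells sorted for high aldehyde dehydrogenase activity. RNA was sequenced in 3 libraries of each group, and a short hairpin RNA in the KD cells targets LINC00115, a long noncoding RNA. The labels give the controls as wild type, while legends for other experiments of the study name a control hairpin, and both groups are paclitaxel resistant. The study names a single hairpin, sh115-2, for its RNA-seq comparison, while the descriptions number the KD libraries from sh115-1 to sh115-3 and the titles call them replicates. A legend of the study speaks of 3 independent experiments for a set of panels that includes its RNA-seq plot, but neither it nor the labels state that each library came from its own culture, so the p-values measure the spread between these libraries, which may be technical.

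Most human genes are transcribed with introns, and the choice of exons is set largely by proteins that bind the nascent transcript. SR proteins carry RNA recognition motifs and a tail rich in arginine and serine, bind exonic enhancers and usually promote the inclusion of an exon. The hnRNPs package pre-mRNA and often repress exons, so that both branches compete over many sites. Many of these genes limit their own level by splicing their transcript into a form that is degraded, and altered dosage of several is known in breast cancer.

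The control libraries held between 37142290 and 37656117 counts and the KD libraries between 36979221 and 38799331. Although the labels give human cells, the table lists genes by symbols in the style of the mouse. Only 16 symbols (0.0696%) equal a human symbol as written and 14406 (62.7%) equal one apart from case, while 4648 are Gm symbols and 1135 end in Rik, forms used for mouse genes, and the Rik genes alone took 0.514% to 0.568% of the counts of each library. The gene names counted thus follow a mouse annotation, which the sources used here do not name. Which species the reads themselves came from was not tested, since no mouse genome was used here. Symbols are printed as listed, and the human positions and promoters given describe the human genes of those names, which may not be the genes counted. The table has 0 genes named LINC00115, so the knockdown could not be checked and every direction rests on the labels. Genes used to class breast cancer lines, among them the receptors Esr1, Pgr and Erbb2 that define a triple-negative line by their lack, were read as CPM, each count relative to the TMM-scaled total of its library. Of these 13 genes, 8 had each KD library above each WT library and 1 below, with summed levels of 4929 to 4982 CPM in WT and 5557 to 5695 CPM in KD libraries. The mean was 3418 in WT and 3736 in KD libraries for Vim, 911 and 879 for Cd44, 472 and 752 for Krt8, 129 and 236 for Krt18, 17.0 and 27.6 for Erbb2 and 5.75 and 9.31 for Egfr. Esr1 and Cdh1 were at 0.698 and 0.053 in WT and at 2.56 and 0.734 in KD libraries, while Krt19, Epcam, Pgr and Aldh1a3 had at most 0.124 in either group and Aldh1a1 was at 0.327 and 1.16. All 12 lung markers had each KD library above each WT library, with summed levels of 1.65 to 1.96 CPM in WT and 76.6 to 87.6 CPM in KD libraries, and 8 of them, among them Scgb1a1 and Sftpc, had no count in WT. For kidney this held for 8 of 12 markers, with 1 (Cubn) lower in each KD library (16.7 to 19.5 against 44.8 to 48.3 CPM in sum, with Kap and Umod at 0 in WT), for leukocytes for 4 of 14, with 1 (Csf1r) lower (73.2 to 87.6 against 145 to 160 CPM, with Cd3e at 0 throughout and S100a8 alone at 33.0 against 95.2) and for endothelium for 2 of 7, with 1 (Tie1) lower (1.19 to 1.83 against 57.4 to 59.8 CPM, of which Cdh5 made up 57.8). Of 6 fibroblast markers 0 were higher and 2 lower (174 to 193 against 75.7 to 77.8 CPM, of which Pdgfra made up 177 and 74.5 on average). Over all genes tested, 37.8% were without overlap in each direction, while the markers include genes too little counted to be tested. Csf1r had 2, 3 and 2 counts in WT and 2, 0 and 1 in KD libraries. Krt19, the breast cancer marker that was lower, had 7, 3 and 4 counts in WT and 1, 2 and 3 in KD libraries. Among the markers that were higher, Scgb3a1, Cldn18 and Kdr were not tested either. The part of these marker differences in the results on splicing factors was not tested, and in bulk RNA fewer cells of a kind and less RNA per cell cannot be told apart.

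Of the 37 members, 36 passed edgeR's expression filter and were tested by its quasi-likelihood test, with p-values adjusted over all 13497 genes tested (Benjamini-Hochberg). The exception was Hnrnpa1l2-ps2, named as a pseudogene, with 3, 1 and 1 counts in the WT and 9, 5 and 15 counts in the KD libraries. At an adjusted p-value under 0.05, 14 members were higher and 18 were lower in KD cells, and 4 passed in neither direction. Over all genes tested, 36.7% were higher and 36.7% were lower by this rule, and 73.4% passed in either direction. The members are heavily counted, none of the 36 with a mean under 27.4 CPM, and of the 6759 genes with at least that level 43.2% were higher, 39.8% lower and 83% either, so the count over all members lies near the background. No member passed the study's thresholds, an adjusted p-value under 0.05 with a fold change over 2, which 10.2% of all genes passed as higher and 9.98% as lower. The counts were 0 and 0 in edgeR's test and also 0 and 0 with DESeq2. The same 32 members had an unadjusted and an adjusted p under 0.05 in edgeR's test, so the fold change alone kept them out.

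The branches went mostly opposite ways. Of the 12 SR members, 9 were higher and 3 lower, with a median log2 fold change of 0.31, where 36.7% of all genes tested were higher and 36.7% lower. Among genes at least as counted as the least counted tested member, 43.2% were higher and 39.8% lower. Of the 24 hnRNP members tested, 5 were higher and 15 lower, with a median of −0.21, against −0.0061 over all genes tested. The log2 fold changes lay between −0.62 and 0.73, so the largest changes were a rise by 65.6% and a fall by 34.9%. Tested against a fold change of 1.2 with edgeR's glmTreat, 6 SR members were higher and 1 lower and 4 hnRNP members were higher and 6 lower, where 25.7% of all genes were higher and 25.8% lower. In 14 members every KD library lay above every WT library and in 19 below, while in 3 the groups overlapped, where 37.8% of all genes tested lay above and 37.8% below.

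**Figure D1:**
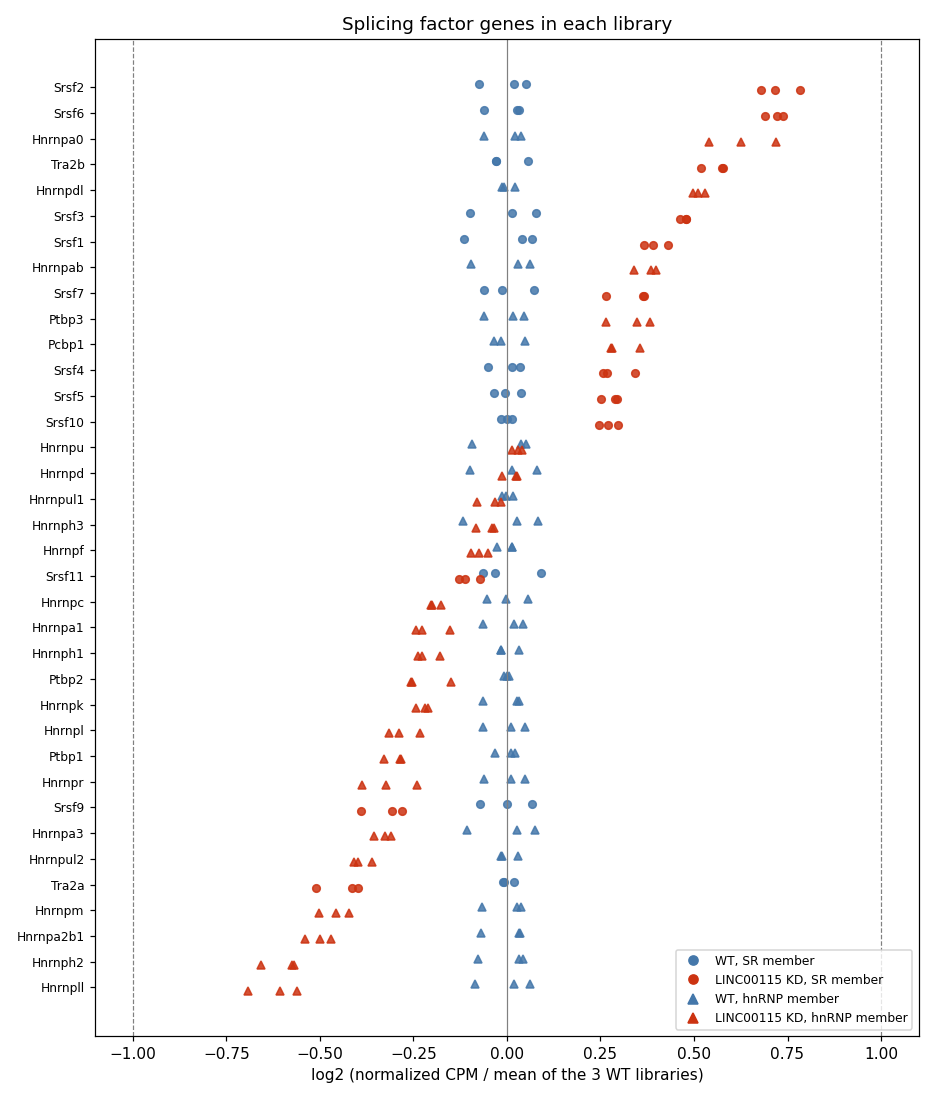
Normalized CPM of the 36 tested members in each library, as log2 of the ratio to the mean of the 3 WT libraries (horizontal axis), ordered by the log2 fold change. Circles are SR and triangles hnRNP members, and dashed lines mark a fold change of 2, which no library of any member reached. The KD points of Srsf2, Srsf6 and Hnrnpa0 lie to the far right and those of Hnrnph2 and Hnrnpll to the far left.

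The SR members took 0.238%, 0.245% and 0.250% of the counts of the WT libraries and 0.317%, 0.310% and 0.317% of those of the KD libraries. The hnRNP members took 0.826%, 0.868% and 0.869% in WT and 0.794%, 0.798% and 0.781% in KD libraries. Neither branch overlapped between the groups. The members as a whole took 1.10% ± 0.030 in WT and 1.11% ± 0.0062 in KD libraries (SD, n = 3 each), and there the groups overlapped. Counts of the SR branch were 28.6% ± 0.339 of those of the hnRNP branch in WT and 39.8% ± 0.900 in KD libraries, a ratio into which no scaling of libraries enters.

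**Figure D2:**
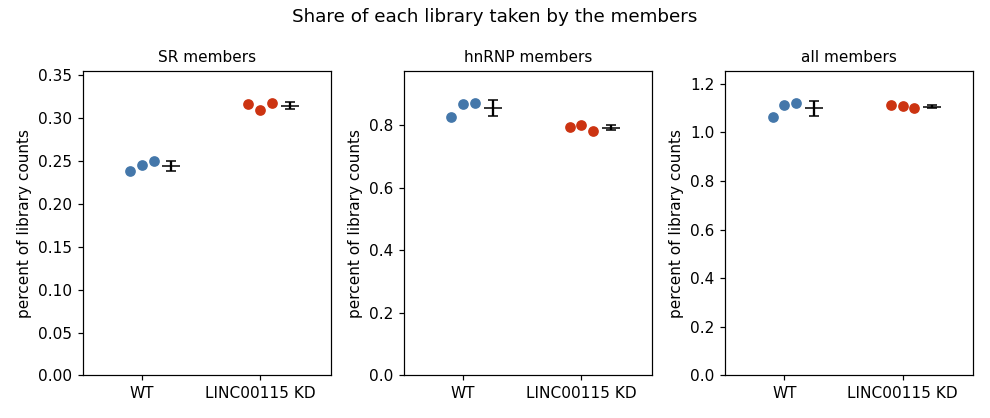
Share of each library's counts taken by SR members, hnRNP members and all members, in percent of the library total. Points are libraries and black bars the mean ± SD of 3 libraries. The SR share is higher and the hnRNP share lower in all 3 KD libraries, and the shares of all members overlap near 1.1%.

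Promoters are shown for members with the largest changes in either direction, so that windows of genes that rose and fell can be set side by side. The RefSeq table of human promoters (GRCh38.p14, 250 bases before to 50 after the start) held 33 of the 36 tested members, matched by symbol without regard to case. Printed are those with the largest rises (Srsf6 and Hnrnpa0) and falls (Hnrnpll and Hnrnph2) among the 33, with ACGTG and GCGTG on either strand in capitals, the core letters of the site that HIF1 binds.
SRSF6 at chr20:43457646-43457945, plus strand: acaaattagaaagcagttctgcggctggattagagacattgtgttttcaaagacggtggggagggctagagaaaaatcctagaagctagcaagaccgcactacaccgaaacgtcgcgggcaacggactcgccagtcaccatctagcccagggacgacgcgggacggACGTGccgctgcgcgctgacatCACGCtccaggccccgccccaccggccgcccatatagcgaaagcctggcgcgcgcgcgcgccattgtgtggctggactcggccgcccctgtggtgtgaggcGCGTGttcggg
HNRNPA0 at chr5:137754314-137754613, minus strand: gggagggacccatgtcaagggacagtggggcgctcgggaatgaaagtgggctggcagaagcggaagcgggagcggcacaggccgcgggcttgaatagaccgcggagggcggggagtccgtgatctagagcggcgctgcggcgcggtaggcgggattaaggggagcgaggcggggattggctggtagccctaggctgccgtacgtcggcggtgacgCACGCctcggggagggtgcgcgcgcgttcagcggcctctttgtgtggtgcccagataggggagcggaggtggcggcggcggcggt
HNRNPLL at chr2:38602879-38603178, minus strand: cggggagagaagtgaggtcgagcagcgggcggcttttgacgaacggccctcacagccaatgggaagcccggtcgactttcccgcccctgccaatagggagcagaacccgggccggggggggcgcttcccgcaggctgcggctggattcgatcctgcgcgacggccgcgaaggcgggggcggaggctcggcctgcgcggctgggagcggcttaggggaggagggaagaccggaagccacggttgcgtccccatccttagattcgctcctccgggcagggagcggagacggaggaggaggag
HNRNPH2 at chrX:101407972-101408271, plus strand: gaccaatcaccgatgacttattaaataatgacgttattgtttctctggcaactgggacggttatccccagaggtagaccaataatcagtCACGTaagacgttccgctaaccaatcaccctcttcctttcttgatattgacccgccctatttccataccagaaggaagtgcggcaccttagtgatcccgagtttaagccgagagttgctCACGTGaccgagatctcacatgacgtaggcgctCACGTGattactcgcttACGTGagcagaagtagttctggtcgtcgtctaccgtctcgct

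The HNRNPH2 window, of a gene that fell, holds ACGTG most often (6 matches over both strands, a CACGTG giving 1 on each), and that of HNRNPLL, which fell as well, holds neither word. ACGTG was found in 17 of the 33 member promoters (51.5%) against 21.4% of all 35116 promoters of this length, and GCGTG in 22 (66.7%) against 36.5%. Both words hold a CG, and the members' windows had a median GC content of 65% against 58.7% for all. The median was 62.8% in SR and 66.3% in hnRNP windows, and the part of GC content in the shares of either word was not tested. By direction, ACGTG was in 7 of 13 promoters of members that rose, 6 of 16 of those that fell and 4 of 4 of those that passed in neither direction, and GCGTG in 10 of 13, 9 of 16 and 3 of 4. By branch, ACGTG was in 6 of 10 SR and 11 of 23 hnRNP windows, and GCGTG in 8 of 10 and 14 of 23. CCAAT, the core of another promoter element, was in 1 of 10 SR windows (10%), in SRSF3, and in 14 of 23 hnRNP windows (60.9%), against 34.6% of all, and by direction in 3 of 13, 10 of 16 and 2 of 4. The words were chosen with the values known, and a match describes letters, not a bound site.

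Among the SR proteins, Srsf2 and Srsf6 rose most. Srsf2 (SC35), which binds exonic enhancers and also acts in transcription elongation, was at 306, 327 and 334 CPM in the WT libraries and at 530, 516 and 555 CPM in the KD libraries. All 3 KD values lay well above the WT values, and the log2 fold change was 0.73 (standard error, SE, 0.036, adjusted p by edgeR 4.21e-19). Srsf6 (SRp55) was at 242, 259 and 257 CPM in WT and at 417, 407 and 422 CPM in KD libraries. Its log2 fold change was 0.72 (SE 0.034, adjusted p = 2.16e-19), and its groups did not overlap either. In the human annotation (GRCh37), SRSF2 is a minus-strand gene at chr17:74730197-74733415, and its exons overlap those of MFSD11 on the other strand. Whether the counting used strand is not stated. Mfsd11 was at 38.2 ± 0.515 CPM in WT and 36.5 ± 1.82 CPM in KD libraries (SD, n = 3), with an adjusted p of 0.336 in edgeR's test.

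Srsf3 (SRp20), the smallest SR protein, which also helps export of mRNA, rose from 240, 259 and 271 CPM in WT to 358, 358 and 354 CPM in KD libraries. Its log2 fold change was 0.47 (SE 0.037, adjusted p = 1.62e-13, edgeR). Srsf1 (SF2/ASF), the founding SR protein and a known oncogene in breast epithelium, had 328, 372 and 365 CPM in WT and 457, 465 and 478 CPM in KD libraries. The WT library with the lowest value was replicate 1, and the log2 fold change was 0.39 (SE 0.038, adjusted p = 1.95e-11). The other risers, Srsf4, Srsf5, Srsf7 and Srsf10, had log2 fold changes between 0.27 and 0.33 with no overlap between the groups. Srsf9 (SRp30c), close to Srsf1 in sequence, fell from 103, 108 and 113 CPM to 89.1, 82.5 and 87.5 CPM (log2 fold change −0.32, SE 0.046, adjusted p = 1.31e-07). Srsf11 was the least changed SR gene, at 213, 192 and 196 CPM in WT and 183, 191 and 185 CPM in KD libraries. Its log2 fold change of −0.10 (adjusted p = 0.0184, edgeR) was not past the threshold without WT replicate 1 (−0.057, adjusted p = 0.152), without KD replicate 1 (−0.086, adjusted p = 0.108) or without KD replicate 3 (−0.093, adjusted p = 0.0831).

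The paralogs Tra2a and Tra2b, SR-like proteins that bind the same purine-rich enhancers, went opposite ways. Tra2b was at 208, 209 and 221 CPM in WT and at 317, 305 and 317 CPM in KD libraries, a log2 fold change of 0.56 (SE 0.036, adjusted p = 6.20e-16, edgeR). Tra2a was at 147, 144 and 144 CPM in WT and at 109, 110 and 102 CPM in KD libraries, a log2 fold change of −0.44 (SE 0.041, adjusted p = 1.42e-11). Neither gene overlapped between the groups.

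**Figure D3:**
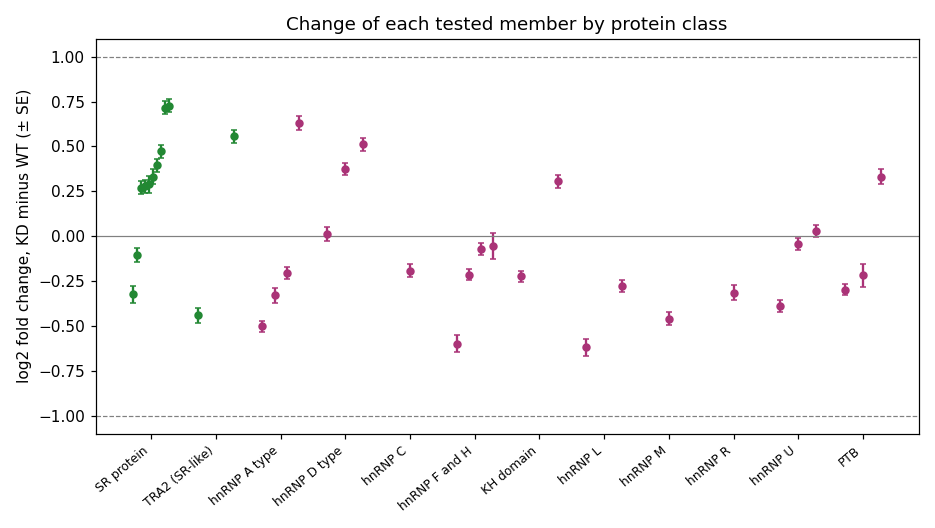
Log2 fold change (KD minus WT) with its standard error for each tested member, by protein class, with SR genes in green and hnRNP genes in purple. Dashed lines mark a fold change of 2. The SR proteins lie mostly above 0, with Srsf9 and Srsf11 below it, and most hnRNP classes lie below 0, with Hnrnpa0, Hnrnpab, Hnrnpdl, Pcbp1 and Ptbp3 as the risers.

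In the A type, which binds UAG-containing silencers, Hnrnpa2b1 fell and Hnrnpa0 rose. Hnrnpa2b1, a reader of RNA marks and one of the most counted members, was at 807, 867 and 866 CPM in WT and at 599, 611 and 582 CPM in KD libraries. All KD values were below all WT values, with a log2 fold change of −0.50 (SE 0.033, adjusted p = 1.01e-15, edgeR). Human HNRNPA2B1 overlaps exons of CBX3 and NFE2L3 on the other strand. NFE2L3 was not analysed here, and Cbx3 was at 104 ± 5.10 CPM in WT and 101 ± 2.82 CPM in KD libraries (SD, n = 3, adjusted p = 0.421 in edgeR's test). Hnrnpa3 fell from 157, 178 and 172 CPM to 135, 136 and 132 CPM (log2 fold change −0.33), and Hnrnpa1, the best known splicing silencer of the type, from 623, 659 and 670 CPM to 555, 585 and 549 CPM (log2 fold change −0.21, adjusted p = 1.35e-06). Hnrnpa1 has near-identical processed copies in mammalian genomes, and how reads of such copies were counted is not stated. Hnrnpa0, which binds AU-rich elements of stress-response mRNAs, rose from 265, 280 and 283 CPM to 454, 401 and 426 CPM (log2 fold change 0.63, SE 0.038, adjusted p = 1.69e-16). It was the largest rise of the hnRNP branch, and its KD libraries differed more among themselves than those of Srsf2.

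The D type binds AU-rich RNA and influences its decay. Hnrnpdl was at 167, 168 and 171 CPM in WT and at 244, 238 and 241 CPM in KD libraries (log2 fold change 0.51, SE 0.036, adjusted p = 5.87e-15, edgeR). Hnrnpab rose from 620, 691 and 676 CPM to 865, 873 and 837 CPM (log2 fold change 0.37, adjusted p = 8.06e-12). Hnrnpd (AUF1), beside HNRNPDL on human chromosome 4, was at 268, 290 and 304 CPM in WT and at 285, 293 and 292 CPM in KD libraries. These groups overlapped fully, and the log2 fold change of 0.012 had a 95% interval from −0.062 to 0.086 (adjusted p = 0.786).

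The largest falls of all members were in the L and the F and H classes. Hnrnpll, known for regulating exon choice in lymphocytes, was at 106, 114 and 118 CPM in WT and at 76.5, 74.1 and 69.9 CPM in KD libraries (log2 fold change −0.62, SE 0.048, adjusted p = 9.61e-14, edgeR). Its relative Hnrnpl changed less, with a log2 fold change of −0.28. Hnrnph2, which binds runs of guanines, fell from 96.4, 105 and 104 CPM to 64.6, 68.4 and 68.7 CPM (log2 fold change −0.60, SE 0.048, adjusted p = 2.14e-13). Hnrnph1, nearly the same protein, fell from 560, 579 and 560 CPM to 484, 500 and 480 CPM (log2 fold change −0.21, adjusted p = 2.62e-07). Hnrnph3 showed overlapping groups, with 28.4, 25.7 and 29.6 CPM in WT and 26.3, 27.2 and 27.3 CPM in KD libraries (log2 fold change −0.052, 95% interval −0.19 to 0.089, adjusted p = 0.521). Hnrnpf stood just inside the threshold (log2 fold change −0.074, adjusted p = 0.0480, edgeR). It lost the call without WT replicate 2 (−0.066, adjusted p = 0.126), WT replicate 3 (−0.065, 0.123), KD replicate 1 (−0.066, 0.150), KD replicate 2 (−0.076, 0.0723) or KD replicate 3 (−0.056, 0.216), and also with DESeq2 (−0.066, 0.0650). The call was lost as well in edgeR with DESeq2 size factors (−0.067, 0.0751), with no low-count filter (−0.074, 0.0800) and against a fold change of 1.2. Hnrnpf was called in 5 of 14 alternatives, among them upper quartile scaling (−0.11, 0.00238) and library size alone (−0.093, 0.0105).

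Of the remaining hnRNP members, Hnrnpm, a regulator of exon choice in epithelial-mesenchymal transition, fell from 329, 351 and 354 CPM to 257, 243 and 251 CPM (log2 fold change −0.46, SE 0.036, adjusted p = 1.07e-13, edgeR). Hnrnpk, a poly(C)-binding protein with KH domains, fell from 786, 837 and 840 CPM to 694, 709 and 705 CPM (log2 fold change −0.22, adjusted p = 1.04e-07). Hnrnpc, which binds uridine runs, and Hnrnpr had log2 fold changes of −0.19 and −0.32. The U class, named for Hnrnpu, which contacts chromatin as well as RNA, was split. Hnrnpul2 fell from 232, 232 and 239 CPM to 178, 183 and 176 CPM (log2 fold change −0.39, SE 0.036, adjusted p = 9.03e-12). Hnrnpu, with the highest CPM of all members, was at 823, 910 and 902 CPM in WT and at 887, 904 and 897 CPM in KD libraries (log2 fold change 0.028, 95% interval −0.037 to 0.093, adjusted p = 0.448). For Hnrnpul1 the log2 fold change was −0.042 (95% interval −0.11 to 0.026, adjusted p = 0.276), from 245, 248 and 244 CPM in WT and 240, 243 and 233 CPM in KD libraries. It passed only with upper quartile scaling (−0.083, adjusted p = 0.0298).

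Counts of related members were also divided within each library, which removes any scaling. The pairs were chosen after their values were seen, since several went apart, and the ratio of a pair holds the lengths of both transcripts, so only its difference between the groups is read. The ratio of Tra2b to Tra2a was 1.42, 1.45 and 1.53 in WT and 2.92, 2.77 and 3.12 in KD libraries, 2.00 times as high. That of Srsf1 to Srsf9 was 3.18, 3.44 and 3.21 in WT and 5.13, 5.63 and 5.46 in KD libraries, 1.65 times as high. Ptbp1, the polypyrimidine tract binding protein that represses neuronal exons, fell (log2 fold change −0.30) while its paralog Ptbp3 rose (0.33). Their ratio went from 4.39, 4.23 and 4.28 to 2.93, 2.78 and 2.63, and the third paralog, Ptbp2, fell as well (−0.22, adjusted p = 0.00223, edgeR). Pcbp1, a poly(C)-binding relative of Hnrnpk, rose by 0.31 on the log2 scale, and its ratio to Hnrnpk went from 0.309, 0.307 and 0.293 to 0.434, 0.426 and 0.451. The ratio of Hnrnpa0 to Hnrnpa2b1 rose the most, from 0.328, 0.323 and 0.327 to 0.758, 0.657 and 0.731. The ratios of Hnrnpdl to Hnrnpd and of Hnrnph2 to Hnrnph1 were 1.41 and 0.766 times those of WT. None of the 7 ratios overlapped between the groups, which the choice of pairs fixed for most of them, so the ratios are given as a description with no test.

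**Figure D4:**
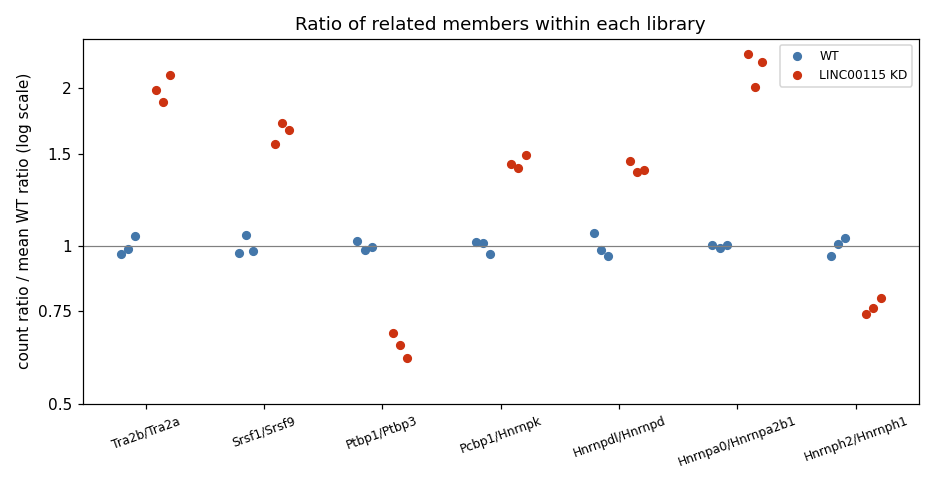
Ratio of the counts of related members within each library, divided by the mean WT ratio (vertical axis, log scale), for 7 pairs. Each point is a library. The KD libraries lie above the WT libraries for 5 pairs, near 2.00 times for Tra2b/Tra2a and 2.19 times for Hnrnpa0/Hnrnpa2b1, and below them for Ptbp1/Ptbp3 and Hnrnph2/Hnrnph1.

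The spread between replicates was small. The median coefficient of variation was 3.8% in WT and 2.25% in KD libraries, against 5.98% and 5.38% for all genes tested, most of which are counted less. In 30 of the 36 members WT replicate 1 had the lowest normalized level of the WT libraries. The same share over all genes tested was not counted. By a chi-square over all genes tested, WT replicate 1 differed from WT replicates 2 and 3 by 7.36 and 7.80 per degree of freedom. Those differed from each other by 4.34. Without WT replicate 1, the same 14 members were higher and 17 of the 18 were lower, the exception being Srsf11.

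Gene counts sum every transcript of a gene, and in the human annotation (GENCODE, GRCh37) all 12 SR members have at least 1 transcript classed as degraded by nonsense-mediated decay (NMD), as have 16 of the 24 tested hnRNP members (66.7%) and 38.8% of all protein-coding genes. The counts therefore do not tell productive transcripts from degraded ones. Exons of 13 of the 36 members overlap those of another coding gene in that annotation.

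The activity and location of SR proteins are set by phosphorylation of their arginine-serine tail, by the SRPK kinases in the cytoplasm and the CLK and DYRK kinases in the nucleus. In a list of 17 such kinases, phosphatases and anchoring proteins, 3 of 16 genes tested rose and 11 fell at an adjusted p-value under 0.05, with a median log2 fold change of −0.20, where 36.7% of all genes tested were called in each direction. Past the study's thresholds as lower were Dyrk1b (31.4 ± 3.83 to 9.62 ± 0.840 CPM, SD, n = 3, log2 fold change −1.71), Akap8l (−1.38) and the kinase Clk3 (75.2 ± 3.57 to 34.8 ± 1.21 CPM, −1.11). The other CLK kinases, named after their values were seen, were lower as well, with log2 fold changes of −0.95 for Clk1, −0.85 for Clk2 and −0.25 for Clk4. Of the SRPK kinases, named after their values were seen as well, Srpk1 rose (0.36) and Srpk2 fell (−0.48), and Akap17a (0.84) and Dyrk1a (0.70) had the largest rises.

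Among 77 tested genes for other splicing regulators, 29 were higher and 36 lower, with a median of −0.071, against 36.7% of all genes in each direction. The largest rises were those of Thrap3 (log2 fold change 0.63) and Mbnl1 (0.63), and the largest falls those of Mbnl2 (−0.77) and the cold-inducible Cirbp (−0.63). The muscleblind-like proteins Mbnl1 and Mbnl2 bind the same kind of RNA motif, and they moved apart, from 86.2 ± 4.02 to 133 ± 3.93 CPM and from 248 ± 10.8 to 146 ± 1.98 CPM (SD, n = 3). Of 101 tested genes of the core spliceosome, which carries out the splicing reaction, 26 were higher and 46 lower, a median of −0.069, against 36.7% of all genes in each direction. Only Snrpg, part of the Sm ring, passed the study's thresholds there (74.5 ± 6.20 to 37.1 ± 2.06 CPM, SD, n = 3, log2 fold change −1.003), next to Snrnp25 (−0.92), while Prpf39 (0.83) and Rnpc3 (0.74) rose most. In 17 genes of the exon junction complex and NMD, which degrades the unproductive SR transcripts, 7 were higher and 5 lower, against the same 36.7% of all genes in each direction. The helicase Upf1 that drives NMD rose from 85.5 ± 6.57 to 161 ± 0.708 CPM (SD, n = 3, log2 fold change 0.91, adjusted p = 6.96e-19, edgeR). Nbas (1.01) passed the study's thresholds, and Upf3b (−0.76) and Magoh (−0.55) fell.

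**Figure D5:**
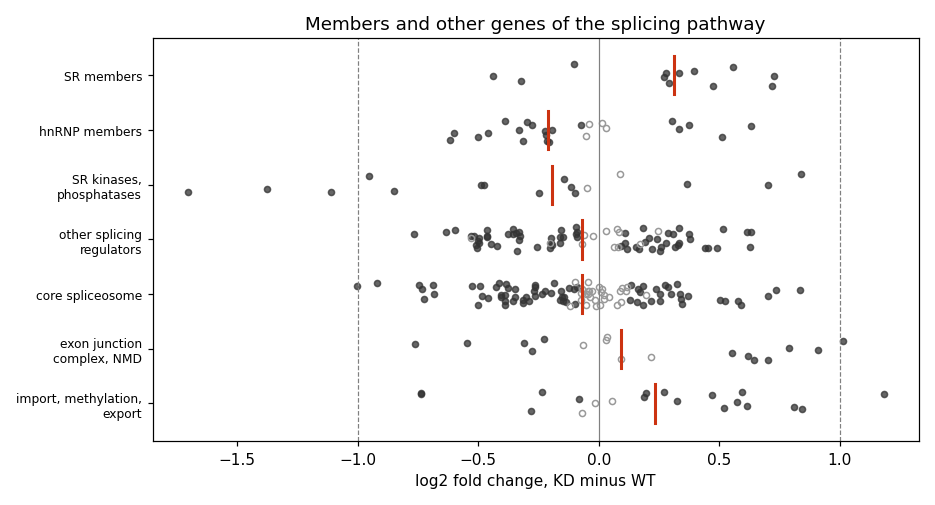
Log2 fold change (KD minus WT) of the tested genes of both branches and of 5 lists of other splicing genes. Filled points have an adjusted p-value under 0.05, open points do not, red bars are medians and dashed lines mark a fold change of 2. The SR members have the highest median (0.31), the hnRNP members the lowest (−0.21), and Dyrk1b lies farthest to the left (−1.71).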

How the data were processed

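RNA of 3 libraries labelled LINC00115 KD and 3 labelled WT was sequenced. The authors trimmed adapters, mapped reads with HISAT2 and deposited whole-number counts per gene without normalization. The study's methods name hg19, the submitters' processing notes name hg38, HISAT2, featureCounts and DESeq2, and the annotation and strand setting are not given in the sources used here. The methods name RNeasy Plus and NEBNext Ultra kits, the labels TRIzol and a SMARTER mRNA kit. Every count column was matched to its sample by its description.

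Tests used edgeR 4.0.16 in R 4.3.3 (filterByExpr with minimum count 10 and minimum total 15, TMM scaling, quasi-likelihood test, group only, Benjamini-Hochberg adjustment over all genes tested). The adjusted p-value threshold was 0.05, with the study's fold change over 2 as a second rule. Standard errors divide a log2 fold change by the root of its F statistic, and 95% intervals use the normal quantile. Libraries of 1 group were compared pairwise by a chi-square over genes, which gave 3.88 to 7.80 per degree of freedom, so none was a copy of another. The pipeline was tested on simulated data with 200 changed genes. There edgeR called 183 of them and 9 unchanged genes, and DESeq2 175 and 11. With 0 changed genes, edgeR called 0 and DESeq2 called 1. Far fewer genes changed there than the 73.4% called in the data, so the simulation does not check the scaling in data of this kind. DESeq2 1.42.0, other scalings and filters, glmTreat against a fold of 1.2, left-out replicates and the replicate number as a block were alternatives.

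The rule for named members took those past the study's thresholds, the 8 largest rises and falls, the 6 most counted and those not called, and for each list the genes past the thresholds and the 2 largest rises and falls. The other 13 members, the CLK and SRPK kinases outside that rule, Mfsd11, Cbx3 and markers were named after their values were seen. Classes, pairs and promoter words were set after the values were seen. The members and lists were chosen with earlier results of these data known.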

Additional observations from a re-analysis of the deposited data

How the results depend on the processing

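The 14 members higher in KD libraries were called higher, the same genes, under every scaling, filter, tool and left-out replicate, except that the test against a fold change of 1.2 called 10 of them. The 18 lower members numbered between 16 and 19 except in that test, which called 7. It also called 33 of 77 other splicing regulators, 33 of 101 core spliceosome genes and 10 of 20 import, methylation and stress partners, where 25.7% of all genes were higher and 25.8% lower. None of the other settings moved a count of calls by over 1.5 times, and no member passed the study's thresholds under any of them. With upper quartile scaling the median log2 fold change over the members moved from −0.063 to −0.10, while with a replicate left out it ranged from −0.086 to −0.050. Reversed signs were confined to members that were not called. Hnrnpd moved to −0.029 with upper quartile scaling, to −0.0074 with library size alone and between −0.036 and 0.055 with a replicate left out, and Hnrnpu to −0.013 with upper quartile scaling and between −0.016 and 0.056 with a replicate left out. Replicate numbers are shared by the groups in the labels, but the deviations of same-numbered libraries correlated by 0.042, −0.015 and −0.021, so the number was not taken as a pairing. With the number as a replicate block, 14 members were higher and 18 lower, the same calls. Low counts left only Hnrnpa1l2-ps2 untested. Among the tested members the least counted, Hnrnph3, had a standard error of 0.072, against 0.033 for the most counted, Hnrnpu.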

Other observations

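Partners of SR proteins and hnRNPs in nuclear import, methylation, mRNA export and stress granules were listed as well, with the nuclear RNAs Malat1 and Neat1. Of 20 genes tested, 12 rose and 5 fell at an adjusted p-value under 0.05 in edgeR's test, with a median log2 fold change of 0.23, where 36.7% of all genes were higher and 36.7% lower. The arginine methyltransferases Prmt6 and Prmt3 rose most. Prmt6 went from 12.2 ± 1.10 to 27.8 ± 0.897 CPM (SD, n = 3 each, log2 fold change 1.18, past the study's thresholds) and Prmt3 from 29.5 ± 1.75 to 53.0 ± 0.385 CPM (log2 fold change 0.84). Nxf1, the main mRNA export receptor, fell from 174 ± 3.15 to 104 ± 3.43 CPM (log2 fold change −0.74). The nuclear speckle RNA Malat1 fell from 216 ± 25.7 to 130 ± 30.7 CPM (log2 fold change −0.74), with a wider spread between libraries than the other genes named.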
